A study of Mus musculus with 4 samples.

Results

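A set of 10 genes known as markers of injury to the kidney tubule, Havcr1, Lcn2, Clu, Spp1, Gdf15, Atf3, Plaur, Cd44, Sprr2f and Krt20, were followed in mouse kidney after vancomycin. They were chosen by gene name: every probe of the array whose gene name was 1 of these 10 was taken, which gave 14 probes of 56605 and 10 gene entries of 37074. All 10 genes had a probe well above background on at least 1 array, and 24640 gene entries in all met that condition.

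Kidney RNA of ICR mice, an outbred stock, was measured on 4 single-colour expression arrays, 1 array per group. Either saline or vancomycin was injected at zeitgeber time 2 (ZT2, in hours from lights on) or at ZT14, and the kidney was collected 1 day later. Vancomycin is a glycopeptide antibiotic that can injure the kidney at high exposure, and the comparisons ask how the kidney differed between drug and saline at each time of injection. No genotype, dose, sex or age is given in the labels, nor whether a sample was 1 mouse or several, and with 1 array per group a difference at a single time is a value with no test.

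A damaged tubule cell loses its specialised transport function and turns on genes that a healthy tubule keeps low. Some of these encode surface receptors that clear dead cells or bind matrix, some encode secreted proteins that can be measured in urine or blood, and some belong to the general stress response. Havcr1, which encodes kidney injury molecule 1, is the best known of them: it is scarcely expressed in the healthy proximal tubule and strongly expressed after many kinds of toxic or ischaemic injury.

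The Havcr1 results rest on a single probe, so its sequence is shown. It lies at chr11:46592056-46592115 on the forward strand of mm9, the build that the file headers name. Read from its first base it holds 19 codons without a stop and then the stop codon TGA, which is in capitals. No mm9 annotation was used here, so the exon is not given.

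Havcr1 probe: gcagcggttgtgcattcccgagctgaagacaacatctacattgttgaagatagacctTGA

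Atf3, Gdf15 and Spp1 were higher with vancomycin at both injection times. Plaur was lower at ZT2 and higher at ZT14, and Havcr1 the other way round. For Atf3, Gdf15 and Plaur only, the 250 bases before the first listed start are shown. They are from RefSeq on GRCm38.p6 and are written 5′ to 3′ on the strand of the gene. Capitals mark matches, on either strand, to the motifs searched: TGACGTCA (the cyclic AMP response element), TTACGTCA (a variant of it), TGATGNAA (the composite site of C/EBP and ATF factors), TGANTCA (AP-1) and TTCNNNGAA (STAT).

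Atf3, chr1:191183334-191183583, reverse strand: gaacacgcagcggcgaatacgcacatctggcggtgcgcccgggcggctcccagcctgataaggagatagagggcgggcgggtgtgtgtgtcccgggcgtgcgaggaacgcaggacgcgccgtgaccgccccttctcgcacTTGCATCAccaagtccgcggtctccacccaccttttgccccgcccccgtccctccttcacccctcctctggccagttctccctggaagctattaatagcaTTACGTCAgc
Gdf15, chr8:70632457-70632706, reverse strand: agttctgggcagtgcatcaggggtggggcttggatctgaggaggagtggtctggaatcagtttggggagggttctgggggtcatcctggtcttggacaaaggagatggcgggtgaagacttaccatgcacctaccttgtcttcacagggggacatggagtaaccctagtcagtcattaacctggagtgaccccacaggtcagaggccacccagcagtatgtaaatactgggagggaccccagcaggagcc
Plaur, chr7:24462233-24462482, forward strand: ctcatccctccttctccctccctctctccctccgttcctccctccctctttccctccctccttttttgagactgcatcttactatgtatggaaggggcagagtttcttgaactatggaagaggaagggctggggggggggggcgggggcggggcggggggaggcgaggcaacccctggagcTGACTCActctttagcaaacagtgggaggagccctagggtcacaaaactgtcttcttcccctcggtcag

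Atf3 held 1 TTACGTCA that began at position -10 from the start and 1 match to TGATGNAA that began at -110. These motifs were in 0.447% and 3.45% of 32851 RefSeq windows of the same length. Plaur held 1 TGANTCA that began at -69, a motif in 6.75% of windows, and Sprr2f held 1 that began at -197. RefSeq windows were matched for 9 of the 10 genes, with 13 windows in all. The other windows of these genes, those of Gdf15, Spp1 and Havcr1 included, held 0 matches to the 5 motifs. TGACGTCA was in 1.55% and TTCNNNGAA in 7.02% of all windows. A match describes the letters and does not show a bound site.

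Values below are normalised signals, that is the scanner's processed signal multiplied so that the 75th percentile over all probes was 587 on every array. The error after ± is that of the scanner software's error model for a spot, in most cases about 10% of the signal, and it holds no spread between animals. A probe is called dim on an array where the scanner did not mark it as well above background. A difference from a dim value is then a bound ("at least"), taken against a floor, the faintest signal that the scanner marked as above background on the array, which was 9.74 to 13.2 over the 4 arrays, or against the dim signal itself where that was higher. In the last case the value leaves out the error of the dim signal, so the true difference may be smaller. In medians "with dim values at their bound", a gene dim on both arrays or without a bound is taken as not different. Genes with several probes are given by the brightest, and levels are not compared between genes.

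The arrays were alike in quality, with 60.6% to 64.7% of spots well above background and 0 saturated. The spike-in slope was 0.877 on the vancomycin ZT2 array, outside the range set in the file header, and 0.935 to 1.004 on the others. Both ZT2 arrays were on 1 slide and both ZT14 arrays on another, and vancomycin held the second position on each, so injection time and slide cannot be told apart, nor treatment and position. Kidney markers were present: all 12 proximal tubule genes, all 5 of the thick ascending limb, all 4 of the distal convoluted tubule, all 7 of the collecting duct and all 4 of the podocyte were well above background on all 4 arrays.

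With vancomycin the 10 genes differed from saline in both directions. At ZT2 3 of the 10 stood at least 2-fold above saline (Havcr1, Gdf15 and Atf3) and 3 at least 2-fold below it (Plaur, Cd44 and Sprr2f). At ZT14 0 of the 10 were higher by that size and 2, Havcr1 and Sprr2f, were lower. For all gene entries tested, the share higher by 2-fold or more at ZT2 was 1.84% and the share lower was 3.62%, and at ZT14 these were 1.56% and 2.77%. The median log2 difference of the 10 genes was -0.36 at ZT2 and -0.01 at ZT14 (0.02 with dim values at their bound), against 0.00 and 0.01 over all entries. By any amount, 3 of the 10 (Spp1, Gdf15 and Atf3) were higher at both times and 2 (Cd44 and Sprr2f) lower at both, against 26.2% and 25.6% of all entries. By limma over both times, in a fit of treatment plus injection time, 0 of the 10 and 0 of 24640 entries (0%) passed an adjusted p of 0.05, while 790 entries were higher and 1317 lower at an unadjusted p under 0.05, together 8.55%. That fit has 1 residual degree of freedom. Its error thus measures how far the effects at the 2 times differ, together with a prior spread shared by all genes (SD 0.17). The fit takes dim signals as measured, so the averages of Cd44, Sprr2f and Krt20 do not follow from the bounds given for them.

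**Figure D1:**
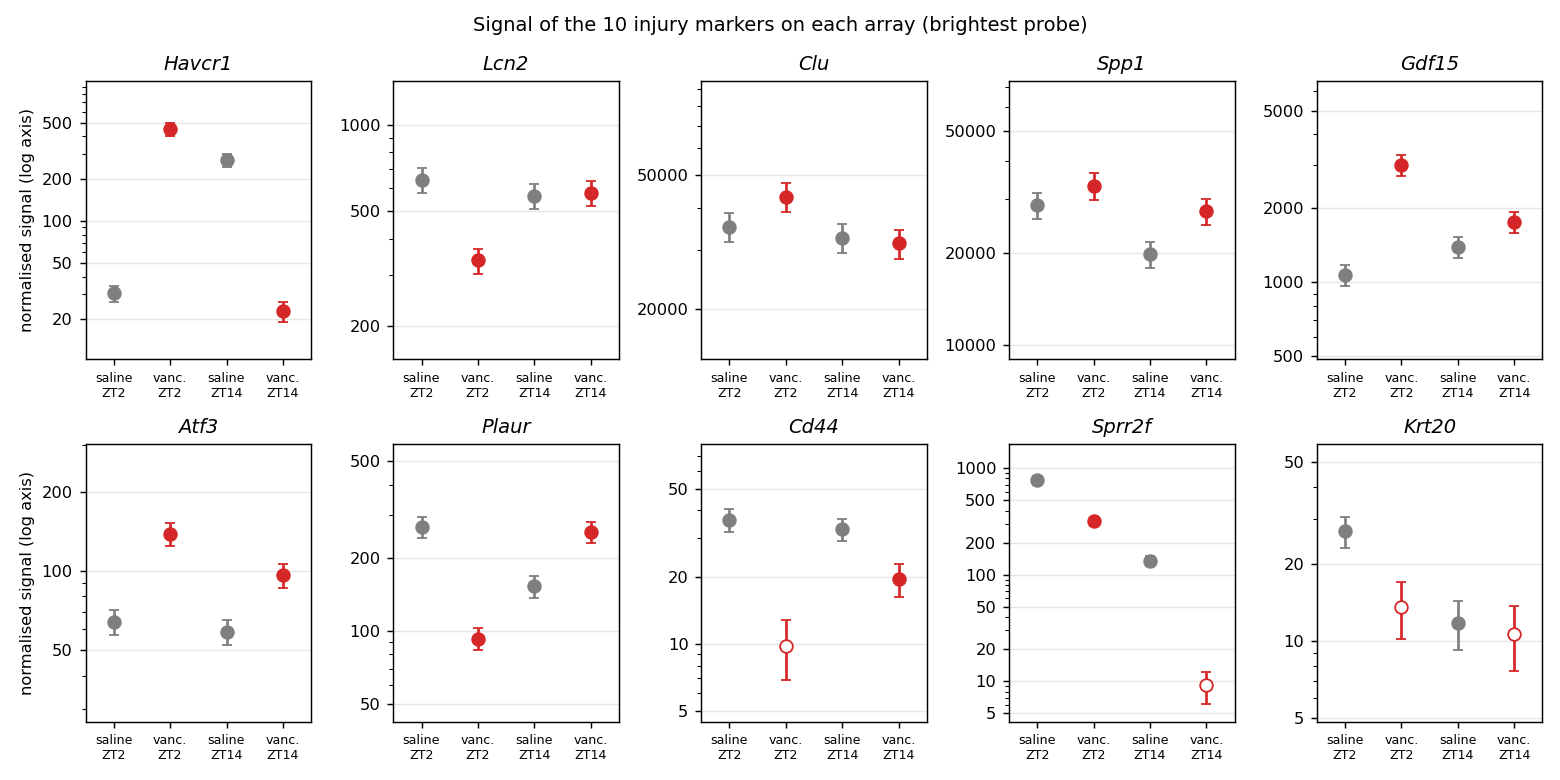
Normalised signal (log axis, a separate scale for each gene) of the brightest probe of each of the 10 genes on the 4 arrays, saline in grey and vancomycin in red; bars are the scanner's error and open circles are dim values. Havcr1 was high with vancomycin at ZT2 and with saline at ZT14, while Gdf15 and Atf3 were highest on the 2 vancomycin arrays.

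Havcr1 encodes a phosphatidylserine receptor that lets tubule cells take up dying neighbours. Its signal was 30.5 ± 4.04 with saline at ZT2, 451 ± 45.2 with vancomycin at ZT2, 271 ± 27.2 with saline at ZT14 and 22.9 ± 3.73 with vancomycin at ZT14. The order was therefore vancomycin ZT2, saline ZT14, saline ZT2 and vancomycin ZT14, and only the last pair overlapped within the scanner's error. Vancomycin stood 3.89 above saline at ZT2 on the log2 scale, a 14.8-fold difference, and was 11.8-fold lower than saline at ZT14 (log2 difference -3.56). The difference at ZT2 was at rank 12 from the top of 22931 entries with a value, and that at ZT14 at rank 12 from the bottom of 23707. With another background correction, normexp, the differences were 2.46 and -1.99, and with a pseudocount of 16 they were 3.30 and -2.93.

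The saline array at ZT14 carried 8.89-fold more Havcr1 signal than the saline array at ZT2 (log2 difference 3.15), whereas between the vancomycin arrays ZT14 was 19.7-fold lower than ZT2 (log2 difference -4.30). With normexp these were 1.80 and -2.65. The difference between the 2 saline arrays was thus of the same order as that between drug and saline. The average over both times was 0.16 ± 2.21 (SE, n = 2 arrays per treatment; limma, adjusted p = 0.99). A total of 32 entries, 0.13% of those tested, were higher with vancomycin by 2-fold or more at ZT2 and lower by 2-fold or more at ZT14, as Havcr1 was.

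**Figure D2:**
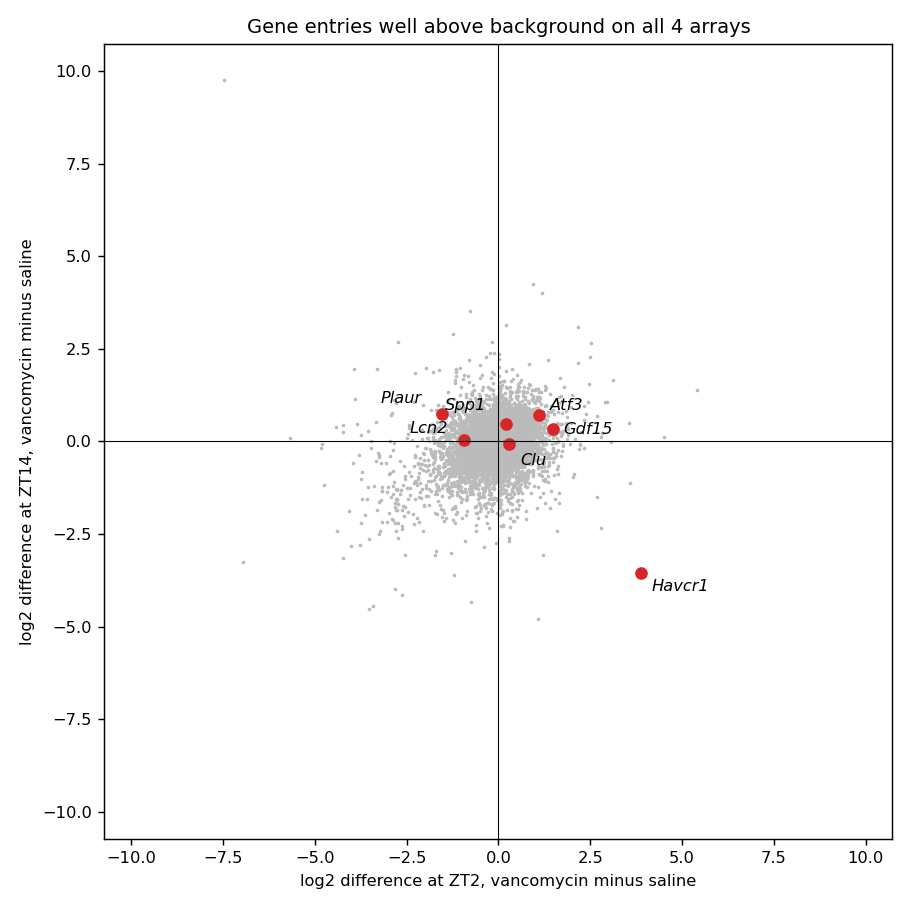
Log2 difference of vancomycin minus saline at ZT2 (x axis) and at ZT14 (y axis) for the 20761 gene entries well above background on all 4 arrays (grey dots), with the 7 injury markers among them in red. Havcr1 lies at the lower right, at 3.89 and -3.56, and the other 6 lie closer to 0 on both axes.

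Of 3 other listed genes of the TIM family, which share Havcr1's immunoglobulin and mucin domains, 2 were measured. Havcr2, the immune checkpoint receptor TIM-3, had 17.1 and 13.4 with saline and dim values with vancomycin at both times, so it was lower by at least 0.37 at ZT2 and at least 0.13 at ZT14 (log2). Timd2, which encodes a ferritin receptor, had 1444, 1427, 901 and 1578 in the order saline ZT2, vancomycin ZT2, saline ZT14, vancomycin ZT14, with log2 differences of -0.02 and 0.81. Timd4, a phosphatidylserine receptor of resident macrophages, was dim on all arrays.

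The 5 entries whose 4 values were closest in pattern to those of Havcr1, by Euclidean distance between log2 signals centred on each gene's mean, were Grin1, Col6a6, Olfr317, Adm2 and Sapcd1, at distances of 1.54 to 1.89. Adm2, which encodes the peptide adrenomedullin 2, was the one measured on all 4 arrays: its signal was 72.9, 473, 250 and 88.5 in the same order. It was thus higher with vancomycin by 2.70 at ZT2 and lower at ZT14 (log2 difference -1.499). These directions follow from the choice of Adm2 by its likeness to Havcr1. Col6a6, a collagen VI chain, had 24.2, 99.2 and 53.0 on the first 3 arrays and was dim on the last. Grin1 and Olfr317 were dim on 3 arrays and Sapcd1 on 2, so much of their likeness rests on dim values. The likeness is over 4 arrays.

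Gdf15 encodes a stress cytokine of the TGF-beta superfamily that is released by injured epithelia. It had 1072 ± 107.3 with saline and 2996 ± 300 with vancomycin at ZT2, and 1396 ± 140 with saline and 1758 ± 176 with vancomycin at ZT14. Both vancomycin arrays were above both saline arrays, and no neighbours in that order overlapped within the scanner's error. The log2 difference was 1.48 at ZT2 (2.79-fold, rank 140 from the top) and 0.33 at ZT14 (1.26-fold), with an average of 0.91 ± 0.37 (SE, n = 2 arrays per treatment; limma, adjusted p = 0.64). Its receptor genes Gfral and Ret were dim on all 4 arrays.

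Atf3 encodes a leucine zipper factor of the ATF/CREB family that cells induce within hours of stress. Its signal was 64.0 ± 6.94 and 58.8 ± 6.35 with saline and 138 ± 14.2 and 96.2 ± 10.1 with vancomycin, ZT2 first in each pair. The saline arrays overlapped within the scanner's error, and both vancomycin arrays were above them. Vancomycin was 2.16-fold higher at ZT2 (log2 difference 1.11) and 1.64-fold higher at ZT14 (0.71). Atf3 had the lowest adjusted p of the 10 genes for the average, 0.91 ± 0.18 (SE, n = 2 arrays per treatment; limma, adjusted p = 0.52). The ZT2 difference fell under 2-fold with normexp, to 0.69, and with a pseudocount of 16, to 0.95.

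Of 11 listed genes that act with ATF3 in the stress response, 10 were measured, with Fosl1 dim on all arrays. Their median was 0.14 at ZT2 and 0.20 at ZT14 on the log2 scale, and 3 were higher and 2 lower at both times. Ddit3, which encodes the stress factor CHOP, had 382 and 237 with saline and 814 and 514 with vancomycin, ZT2 first, so it was higher by 1.09 and 1.12. Atf4, the factor upstream of Atf3 and Ddit3 in the integrated stress response, differed by 0.61 and 0.42. Jun, an AP-1 subunit, was the remaining gene higher at both times, with 0.66 and 0.78. Fos, its partner, had 43.1, 24.9, 14.04 and 43.0 and so differed in opposite directions, by -0.79 at ZT2 and 1.61 at ZT14. Egr1 (-0.46 and -0.03) and Myc (-0.55 and -0.08) were the genes lower at both times. Trib3, Chac1 and Junb were higher at ZT2 (0.14, 0.21 and 0.14) and lower at ZT14 (-0.52, -0.87 and -0.38). Cdkn1a differed by -0.09 and 0.48. None of these passed limma after adjustment over all entries.

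Summed signals of 9 measured adrenal markers ran in the same order over the arrays as Gdf15: 397 with saline at ZT2, 3809 with vancomycin at ZT2, 426 with saline at ZT14 and 775 with vancomycin at ZT14. Of these markers 6 were higher by 2-fold or more at each time, with a median log2 difference of 2.94 at ZT2 and 1.39 at ZT14 (1.053 with dim values at their bound), and Cyp11b2 was dim on all arrays. Cyp21a1, a steroid hydroxylase of the adrenal cortex, had 37.0, 1556, 81.8 and 214, and Cyp11b1, which makes corticosterone, was dim with saline and had 306 and 36.6 with vancomycin. Their part in the results for Havcr1, Gdf15 and Atf3 was not tested.

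**Figure D3:**
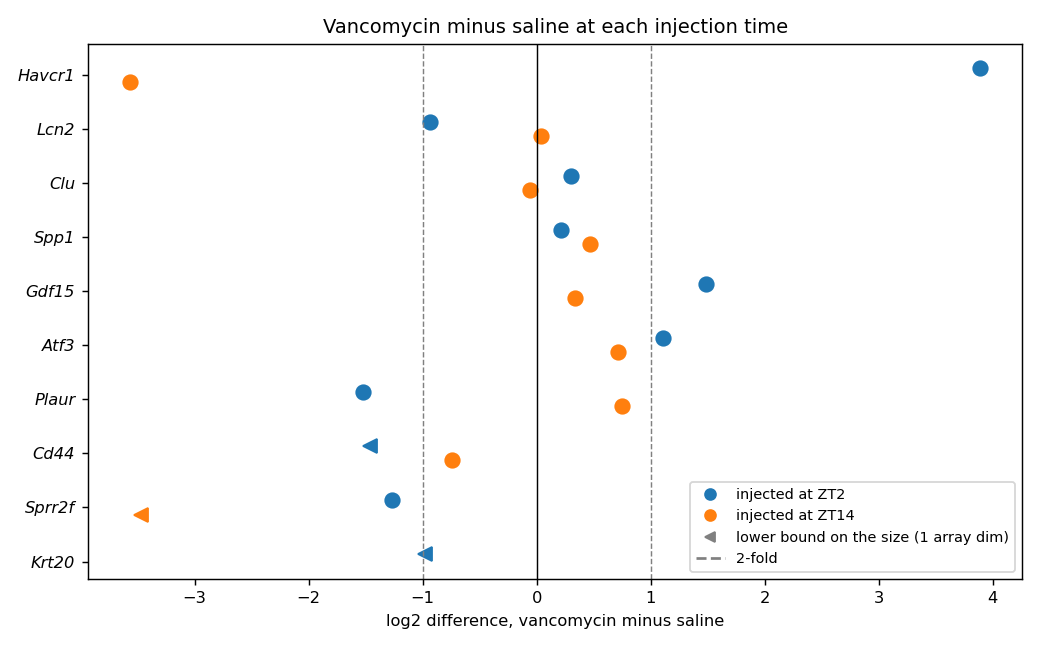
Log2 difference of vancomycin minus saline for each of the 10 genes, for injection at ZT2 (blue) and at ZT14 (orange), with dashed lines at 2-fold. Triangles are lower bounds on the size where 1 array was dim, except for Krt20, whose value was taken against the dim signal itself. Havcr1 was at 3.89 and -3.56 and Plaur at -1.53 and 0.74, while Gdf15 and Atf3 were above 0 at both times; Krt20 has no ZT14 value because its saline signal was under the floor for the dim value.

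Lcn2, Clu and Spp1 encode secreted proteins. Lcn2, the lipocalin NGAL that binds bacterial siderophores and is measured in urine as an early injury marker, had 644 ± 64.4 with saline and 337 ± 33.8 with vancomycin at ZT2, and 564 ± 56.4 and 578 ± 57.9 at ZT14. The vancomycin ZT2 array was the low one, and the other 3 overlapped as neighbours within the scanner's error. The log2 difference was -0.93 at ZT2 and 0.04 at ZT14, with an average of -0.45 ± 0.32 (SE, n = 2 arrays per treatment; limma, adjusted p = 0.76). The other Lcn2 probe gave -0.996 and 0.00.

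Neutrophils also make Lcn2. Of 8 listed neutrophil markers 5 were measured, with median log2 differences of -0.95 at ZT2 and -0.02 at ZT14, and Retnlg, Cxcr2 and Ngp were dim on all arrays. Their summed signal was 685, 483, 1253 and 388 in the order saline ZT2, vancomycin ZT2, saline ZT14, vancomycin ZT14. The calprotectin subunits S100a8 and S100a9 were at -0.99 and -0.95 at ZT2, and at -0.69 and -0.02 at ZT14. The list was mixed: Mmp8 was at 0.51 and 0.50, and Camp was at 0.43 at ZT14. Ly6g, with 358, 298, 1074 and 211, was the only one past 2-fold (-2.35 at ZT14) and made up most of the sum on the saline ZT14 array. Their part in the Lcn2 values was not tested. In whole-kidney RNA, fewer cells of a type and less RNA per cell cannot be told apart.

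Clu encodes clusterin, a secreted chaperone that binds misfolded proteins. It had 35110 ± 3511, 43170 ± 4317, 32617 ± 3262 and 31351 ± 3135 in the same order, and the vancomycin ZT2 array was the high one by a small margin. Its log2 differences were 0.30 and -0.06, with an average of 0.12 ± 0.17 (SE, n = 2 arrays per treatment; limma, adjusted p = 0.89). A second Clu probe was dim on all arrays. Of 6 listed receptors and partners of lipocalin 2 and clusterin, 5 were measured and 0 differed by 2-fold with vancomycin at either time. Slc22a17, a lipocalin 2 receptor, differed by 0.39 and -0.09, and Lrp2, the endocytic receptor megalin, by 0.31 and -0.13. Mmp9, whose product binds lipocalin 2, was dim.

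Spp1 encodes osteopontin, a matrix phosphoprotein that binds integrins and CD44. It had 28702 ± 2870 and 33193 ± 3319 at ZT2 and 19849 ± 1985 and 27423 ± 2742 at ZT14, saline first. The saline ZT14 array was low and the other 3 overlapped as neighbours within the scanner's error. Its log2 differences, 0.21 and 0.47, were in the same direction, with an average of 0.34 ± 0.16 (SE, n = 2 arrays per treatment; limma, adjusted p = 0.66).

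Cd44 encodes the hyaluronan receptor, which also binds osteopontin and marks activated tubule cells and leukocytes. It had 36.3 ± 4.35 with saline at ZT2, a dim 9.83 ± 2.97 with vancomycin at ZT2, 32.9 ± 3.89 with saline at ZT14 and 19.6 ± 3.23 with vancomycin at ZT14. The saline arrays overlapped and both vancomycin arrays lay below them. Cd44 was lower by at least 2.75-fold at ZT2 (log2 bound -1.46) and by 1.68-fold at ZT14 (-0.75), with an average of -1.32 ± 0.36 (SE, n = 2 arrays per treatment; limma, adjusted p = 0.56). The 2-fold size at ZT2 was lost with normexp (-0.32) and with the pseudocount (-0.73). Another Cd44 probe gave -0.94 at ZT2, taken against the dim signal itself, and a log2 bound of -0.68 at ZT14. The last probe was dim on all arrays.

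Of 15 listed ligands, receptors and enzymes around osteopontin and CD44, 11 were measured. At both times 7 were lower and 0 higher, and 0 passed 2-fold. Their median was -0.63 at ZT2 and -0.35 at ZT14 (-0.30 and -0.31 with dim values at their bound). The integrin chains Itgav and Itgb1 differed by -0.63 and -0.15 at ZT2, and by 0.31 and -0.37 at ZT14. The hyaluronan synthase genes Has1, Has2 and Has3 and the growth factor gene Areg were dim on all arrays.

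Many markers of leukocytes, though not all, were also lower with vancomycin. Of 11 macrophage and monocyte markers 8 were lower at both times, with medians of -0.47 and -0.48, and Cd68 and Adgre1 were at -0.47 and -0.43 at ZT2 and at -0.48 and -0.46 at ZT14. Their summed signal was 21820 and 22000 at ZT2 and 27890 and 26850 at ZT14, saline first, so it was not lower with vancomycin at ZT2. Itgam (9122 and 9448 at ZT2, 13990 and 15540 at ZT14) and Csf1r (5699 and 7697, 8229 and 7172) made up most of that sum. Csf1r was at 0.43 at ZT2, and Itgam and Cd14 were above 0 at both times (0.05 and 0.15 for Itgam, 0.20 and 0.15 for Cd14). Of 10 lymphocyte markers 9 were measured and 8 were lower at both times, with medians of -0.84 and -0.73 and summed signals of 1478 and 1082 at ZT2 and 3220 and 2706 at ZT14; Cd79a was dim, and Ms4a1 was at least 0.58 higher at ZT2. At ZT14 Cd4 made up most of the lymphocyte sum, with 2164 for saline and 1951 for vancomycin. Cd3d and Cd3e, chains of the T-cell receptor complex, were at -1.04 and -0.40 at ZT2 and at -0.94 and -0.21 at ZT14. Their part in the Cd44 values was not tested.

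Plaur encodes the urokinase receptor, which focuses plasmin on the cell surface. It had 268 ± 26.9 with saline and 93.0 ± 9.86 with vancomycin at ZT2, and 153 ± 15.5 with saline and 256 ± 25.8 with vancomycin at ZT14. The highest values, saline ZT2 and vancomycin ZT14, overlapped within the scanner's error, and vancomycin ZT2 was the lowest, so the pattern ran opposite to that of Havcr1. Vancomycin was 2.88-fold lower at ZT2 (log2 difference -1.53) and 1.68-fold higher at ZT14 (0.74). The average was -0.39 ± 0.69 (SE, n = 2 arrays per treatment; limma, adjusted p = 0.92). The ZT2 value was -0.94 with normexp.

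The rest of the urokinase system stayed closer to 0. Of 6 listed genes 5 were measured, 0 differed by 2-fold with vancomycin, and the medians were -0.14 and -0.02. Plau, the gene of urokinase itself, differed by 0.01 and -0.15, and Plat, the tissue activator, by -0.14 and 0.27. Serpinb2 was dim on all arrays.

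Sprr2f and Krt20 encode structural proteins of epithelia, the first a small proline-rich protein of the cornified envelope and the second a keratin of the urothelial surface and gut. Sprr2f had 770 ± 77.03 with saline and 319 ± 32.1 with vancomycin at ZT2, and 136 ± 13.8 with saline and a dim 9.18 ± 3.06 with vancomycin at ZT14. No neighbours in that order overlapped within the scanner's error. It was lower with vancomycin by 2.41-fold at ZT2 (log2 difference -1.27) and by at least 11.1-fold at ZT14 (bound -3.47, rank 14 from the bottom). The average was -2.58 ± 0.79 (SE, n = 2 arrays per treatment; limma, adjusted p = 0.58), and the ZT14 difference was -1.49 with normexp and -2.49 with the pseudocount.

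Sprr2 genes are near copies of each other, so the probes were compared. They were compared with each other and not with the transcripts, so binding of the Sprr2f probe to other Sprr2 transcripts was not tested. The Sprr2f probe of 60 bases shared at most 15 bases in a row with another probe of the family, a Sprr2h probe that was dim on all arrays, and at most 7 with the others. Of 14 other listed Sprr genes 7 were measured, with medians of -0.26 at ZT2 and 0.00 at ZT14, and 2 were lower by 2-fold or more at ZT2. These were Sprr1a, with 1955 and 799 at ZT2 and 1037 and 1480 at ZT14 (log2 differences -1.29 and 0.51), and Sprr2g (-1.19 and 0.28). At ZT14 both were thus higher with vancomycin, where Sprr2f was lower. Sprr1b, also listed first, was dim on all arrays.

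Krt20 had 26.8 ± 3.73 with saline at ZT2, 11.8 ± 2.55 with saline at ZT14, and dim values of 13.6 ± 3.37 and 10.6 ± 3.02 with vancomycin. The saline ZT2 array was high and the other 3 overlapped as neighbours within the scanner's error. With vancomycin at ZT2 it was 1.97-fold lower than with saline (log2 difference -0.98), taken against the dim signal itself, which was above the floor. That value leaves out the error of the dim signal. At ZT14 no fold can be given because its saline signal was under the floor for the dim value. With normexp the ZT2 value was -0.07 and with the pseudocount -0.43. The limma average takes the dim Krt20 signals as measured, at ZT14 too. The average was -0.56 ± 0.28 (SE, n = 2 arrays per treatment; limma, adjusted p = 0.69). The 5 listed keratin and vimentin genes Krt7, Krt8, Krt18, Krt19 and Vim were all measured and 0 passed 2-fold, with medians of 0.02 and 0.35. Krt7 differed by 0.07 and 0.35, Krt8 by 0.26 and 0.26, and Krt19 by -0.84 and 0.68.

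Urothelium, the lining of the renal pelvis, expresses Krt20 and Sprr genes, and its markers varied over the same arrays. Of 9 markers all were measured, with medians of -0.61 and 0.99 at the 2 times. At ZT14 4 were higher by 2-fold or more and at ZT2 1, Krt5, was lower. Upk1a, a uroplakin of the luminal membrane, had 1215 and 665 at ZT2 and 699 and 1618 at ZT14, saline first, and Upk1b had 286, 169, 127 and 229. Both were high with saline at ZT2 and vancomycin at ZT14, as Plaur was. The summed signal was 9863, 8618, 7785 and 10540 in the same order. Trp63, with 6145, 6432, 6030 and 6903, made up most of it, and the other 8 markers summed to 3718, 2187, 1755 and 3633. With vancomycin, the sum of these 8 markers and Sprr2f were both lower at ZT2, while at ZT14 the sum was higher and Sprr2f lower. Between the saline arrays both were lower at ZT14. The part of the urothelium in the Plaur, Sprr2f and Krt20 values was not tested.

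**Figure D4:**
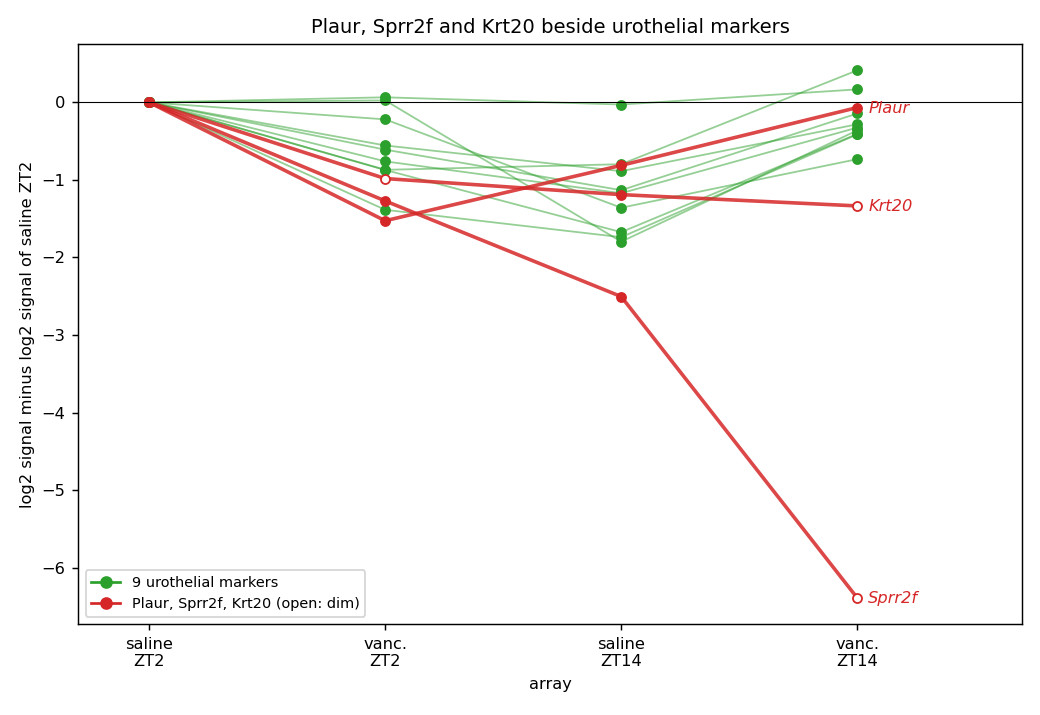
Log2 signal on each array minus that on the saline ZT2 array for 9 urothelial markers (green) and for Plaur, Sprr2f and Krt20 (red); open circles are dim values, drawn at their measured signal, and lines join the values of a gene without implying an order of arrays. Plaur and the uroplakin genes Upk1a and Upk1b were nearer their saline ZT2 level with vancomycin at ZT14 than at ZT2, and Sprr2f was not. Each of these genes was lower with vancomycin than with saline at ZT2.

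Injection time was compared within each treatment as well, where time cannot be told apart from slide. In saline 1 of the 10 genes, Havcr1, was higher at ZT14 by 2-fold or more and 2 were lower, Sprr2f (5.67-fold, log2 difference -2.50) and Krt20 (2.28-fold, -1.19). Over all entries 8.2% were higher and 3.4% lower, and with centring on the median the share of higher among these calls moved from 70.7% to 60.3%. In vancomycin 1 gene, Plaur, was higher at ZT14 (2.75-fold, 1.46), and 2 were lower, Havcr1 and Sprr2f (at least 26.1-fold, bound -4.71). With normexp Krt20 in saline (-0.46) and Plaur in vancomycin (0.88) no longer reached 2-fold, and Sprr2f in vancomycin was at -2.52; Krt20 was at -0.77 with the pseudocount. In vancomycin 8.93% of entries were higher and 3.09% lower, with a share of higher of 74.3%, or 62.7% with centring on the median.

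The other members differed less with time. Lcn2 differed by -0.19 in saline and 0.78 in vancomycin, Gdf15 by 0.38 and -0.77, Atf3 by -0.12 and -0.52, Spp1 by -0.53 and -0.28, and Clu by -0.11 and -0.46. Plaur in saline was at -0.81, and Cd44 was at -0.14 in saline and at least 0.57 higher in vancomycin. That Cd44 bound was 0.08 with the pseudocount and had no value with normexp or the mean over probes. Another Cd44 probe was dim on both vancomycin arrays, with 13.8 at ZT2 and 8.39 at ZT14. The medians of the 10 genes were -0.17 and -0.41 (-0.37 with dim values at their bound), against 0.06 and 0.05 over all entries. By limma 0 entries (0%) passed for time, with 27.2% at an unadjusted p under 0.05, although 1332 to 3394 passed under 5 of the alternative settings. By the same limma fit Sprr2f had an average of -3.81 ± 0.79 (SE, n = 2 arrays per time; adjusted p = 0.13).

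Other genes known to respond to tubular injury were examined by a list of 28, of which 26 were measured and Il6 and Cxcl2 were dim. At both times 12 were lower with vancomycin and 2 higher, with medians of -0.30 and -0.10. At ZT2 3 were lower by 2-fold or more: Cxcl1, a neutrophil chemokine (-1.84), Rbp4, the retinol carrier (-1.79), and Fgb, a fibrinogen chain (bound -2.11). At ZT14 1 was higher, Ccn1, a matricellular protein, with 1230 and 1971 at ZT2 and 473 and 1212 at ZT14 (0.68 and 1.36). Vcam1, the adhesion molecule of maladaptive tubule cells, differed by -0.31 and -0.54, and Sox9, a factor of tubule repair, by -0.12 and -0.12.

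Markers of the tubule itself differed little between treatments. The median over 12 proximal tubule genes was 0.08 at ZT2 and 0.12 at ZT14, and their summed signal was 686000 and 733000 at ZT2 and 970900 and 1002000 at ZT14, saline first. Slc34a1, the phosphate transporter, differed by 0.19 and 0.25, and Slc5a2, the glucose transporter SGLT2, by -0.17 and -0.76. The organic anion transporter gene Slc22a8 alone passed 2-fold, at 1.41 at ZT2. Medians were 0.33 and 0.15 for the thick ascending limb, 0.06 and 0.07 for the distal convoluted tubule, -0.03 and 0.13 for the collecting duct and -0.04 and 0.19 for podocytes. Umod, the uromodulin gene, and the cotransporter gene Slc12a1 of the thick limb differed by 0.31 and 0.33 at ZT2 and by 0.15 and 0.60 at ZT14. In the distal convoluted tubule Slc12a3 differed by 0.10 and -0.19 and Pvalb by 0.53 and 0.07. The water channel genes Aqp2 and Aqp3 of the collecting duct differed by -0.33 and -0.16 at ZT2 and by 0.65 and 0.42 at ZT14. The podocyte slit diaphragm gene Nphs1 differed by 0.09 and -0.60.

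**Figure D5:**
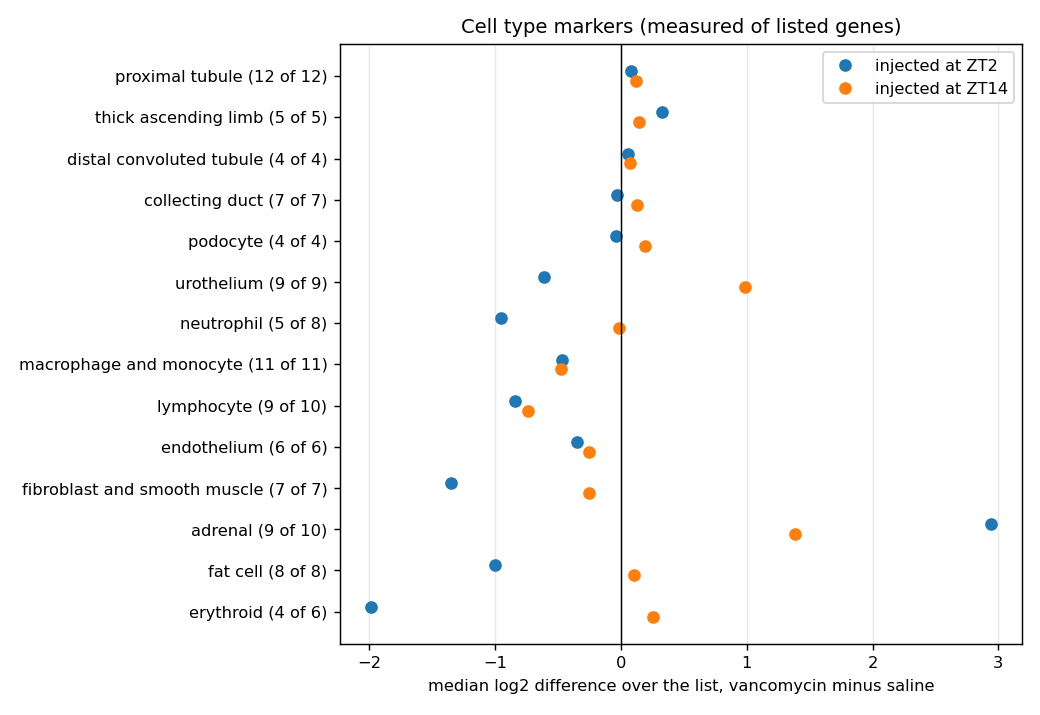
Median log2 difference of vancomycin minus saline over the measured markers of each cell type, at ZT2 (blue) and ZT14 (orange), with the number measured of those listed. Medians of nephron segments lay between -0.04 and 0.33, adrenal markers were at 2.94 and 1.39, and urothelial markers at -0.61 and 0.99.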

How the data were processed

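Per the file headers, the authors scanned each array with Agilent Feature Extraction 10.7.1.1 (9.5.1.1 per the submitters' processing notes) and deposited intensity values per spot: a processed signal with background subtracted and trends removed, its error, and flags. Labelled cRNA was made with a low-input kit, per the labels' protocols. A table of intensity per probe that the authors deposited too has the same median (35.2) in each column and served as an alternative.

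From these, processed signals were log2 transformed and the 75th percentile of each array was subtracted. Replicate spots were averaged, and a probe entered if the scanner marked 50% or more of its spots as well above background on any array. The brightest probe stood for a gene. A size of 2-fold was used at single times, and limma 3.58.1 (R 4.3.3) with Benjamini-Hochberg adjustment over 24640 entries across times; the code was tested on simulated data. A likeness rule named 5 genes. From each gene list the first 2 genes and those past 2-fold with vancomycin were to be named, others stand as counts; in cell type lists the first 2 and dim genes. Some genes that the rule names are not reported here. The 10 genes, the lists and the motifs were chosen with earlier results of these data known. Jun, Egr1, Myc, Trib3, Chac1, Junb, Cdkn1a, Krt19, Slc22a8, Krt5, Csf1r, Itgam, Cd14, Cd4, Ms4a1, Mmp8, Camp, Ly6g, Trp63, Ucp1 and Cidea, which the rule does not name, were picked after their values were seen. Precision is limited by the number of arrays, 1 in each group. Promoter windows came from RefSeq (GRCm38.p6).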

Additional observations from a re-analysis of the deposited data

Results flagged for a closer look

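Havcr1 differed in opposite directions with vancomycin at the 2 injection times: the log2 difference at ZT14 less that at ZT2 was -7.45. Plaur did so the other way round, with 2.27. With 1 array per group, this difference between the times was not tested for either gene.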

How the results depend on the processing

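Of 292 differences of single genes recomputed under the alternatives (normexp, centring on the median, quantile normalisation, the authors' table, a pseudocount of 16, 2 other filters, the mean over probes), 284 kept their direction and their side of 2-fold, 8 kept direction but fell under 2-fold, and 0 reversed. Many of these could not move. The 2 other filters used the same probe for every gene they kept, so its values were unchanged. The mean over probes changed only Lcn2 and Cd44. Havcr1 ranged from 2.46 to 3.92 at ZT2 and from -3.60 to -1.99 at ZT14. With normexp, genes lower with vancomycin at ZT2 numbered 1 (Sprr2f), genes lower at ZT14 than at ZT2 in saline 1, and genes higher at ZT14 in vancomycin 0. With the pseudocount, 1 was lower at ZT14 in saline. The matching shares over all entries were 1.35%, 1.30% and 3.72% with normexp, and 2.23% with the pseudocount. Requiring probes to be well above background on every array leaves 7 of the 10 genes and drops Cd44, Sprr2f and Krt20. Of the genes left, 1 was lower with vancomycin at ZT2 (Plaur), 1 at ZT14 (Havcr1), 0 were lower at ZT14 in saline and 1 in vancomycin. The shares of all entries in that setting were 3.01%, 2.22%, 2.80% and 2.75%, in the same order. By limma, entries called for vancomycin stayed at 0 in every setting run; for injection time they were 3394 with a trended, robust prior, 1332 without the treatment term, 3002 with normexp, 1624 with probes measured on all arrays and 1766 with the pseudocount. The cause of these moves was not tested beyond the genes the filter removes. Without a filter on dim probes the median over all entries moved to 0.11 at ZT2. The pairing in this design is the slide, and the injection time term of the limma fit already sets saline against vancomycin within a slide. Without that term 0 entries were called by limma as well (lowest adjusted p = 0.76, against 0.52 with it). With 1 array per group no replicate could be left out, and signal over background limits Cd44, Sprr2f and Krt20. Havcr1 was well above background on every array but faint with saline at ZT2 (30.5) and with vancomycin at ZT14 (22.9). The size of its differences therefore depends on the background correction.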

Other observations

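Stroma, blood and fat markers, which share the kidney samples with the 10 genes, also varied between the arrays. Of 7 fibroblast and smooth muscle markers 5 were lower by 2-fold or more with vancomycin at ZT2 (median -1.35) and 0 at ZT14 (median -0.26), with Col1a1 at -1.83 and Col1a2 at -1.23 at ZT2. All 6 endothelial markers were lower at both times, with medians of -0.35 and -0.26, and Pecam1 and Kdr at -0.31 and -0.45 at ZT2. Of 6 erythroid markers 4 were measured, with medians of -1.99 and 0.25, and the haemoglobin genes Hba-a1 and Hbb-b1 at -2.09 and -1.88 at ZT2. The 8 fat cell markers had medians of -0.999 and 0.11 (0.00 with dim values at their bound). At ZT2 they differed both ways: 4 were lower by 2-fold or more, among them Adipoq and Plin1 (-1.64 and -1.23, dim on both ZT14 arrays), and 2 were higher by 2-fold or more, Ucp1 (at least 4.01) and Cidea (1.58). These lists are given as values with no test.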
